A study of Mus musculus with 8 samples.

Results

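The genes described here are the axon and vessel guidance families of the mouse: the class 3 to 7 semaphorins and their plexin receptors, the ephrins and the Eph receptors, the Slits and their Robo receptors, and the netrins with the Unc5 receptors. They were taken from the deposited table by gene symbol alone, with no measured value in the rule. The families and the gene lists used below were chosen with earlier results of these data known. Of the 57010 genes in the table, 66 carry such a symbol: 20 semaphorins, 9 plexins, 8 ephrins, 14 Eph receptors, 3 Slits, 4 Robos, 4 Unc5 receptors and 4 netrins. Of these 66, 59 were expressed above the filter and tested (at least 1 TPM, the length-scaled level in transcripts-per-million, in at least 4 of the 8 libraries), as were 16118 genes in all.

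All 8 libraries share the tissue, strain, age and disease model: retina of C57BL/6J mice, 17 days old, that had gone through oxygen-induced retinopathy. In this model a period of high oxygen stops retinal vessel growth, and the return to room air is followed by abnormal regrowth. The 4 control libraries had received a control scAAV, a self-complementary adeno-associated virus vector. For the 4 knockdown libraries the scAAV targets MM2P, a long noncoding RNA known from alternatively activated macrophages. The treatment label of the latter group reads as a knockout, while the design calls it a knockdown. The labels name no promoter, no cell type reached by the vector, no sex and no batch. They also do not say that the 4 libraries of a group come from separate animals. The p-values therefore set the difference between groups against a spread between libraries that may be technical.

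Guidance proteins steer growing axons and vessel sprouts by attraction and repulsion. Semaphorins signal through plexins, with neuropilins as co-receptors of the secreted class 3 forms. Ephrins sit on one cell and bind Eph receptors on its neighbour. Secreted Slits repel growth cones through Robo receptors, and netrins attract through Dcc or repel through Unc5 receptors. In the retina these families order the optic fibre layer, the topographic projection of ganglion cells to the brain and the strata of the inner plexiform layer, and several of them (Robo4, Plxnd1, Unc5b, Efnb2 with Ephb4) act in vessel sprouts.

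No guidance gene passed the test for a difference between knockdown and control retinas after correction over all tested genes. By the quasi-likelihood test of edgeR, 0 of the 59 tested members had a Benjamini-Hochberg adjusted p under 0.05, against 10 of all 16118 tested genes, or 0.062%. At an unadjusted p under 0.05 there was 1 member, Sema3d, or 1.69% of the 59, where 5.27% of all tested genes lay under that level. Of all tested genes 2.62% were under it and higher in the knockdown libraries, as Sema3d was, and 2.66% were under it and lower, as 0 members were. For 0 of 59 members did the 4 knockdown values lie outside the range of the 4 control values, against 3.31% of all tested genes, so the groups overlap for each member named below.

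Other tests gave the same count of calls. DESeq2 called 0 members (0.279% of all tested genes), with 2 at an unadjusted p under 0.05 (4.71%), and limma called 0 (0% of all), with 0 at that level (4.99%). With no expression filter 0 of 66 members were called (0.531% of all genes above 0), with 5, Sema3d, Sema3b, Epha8, Robo4 and Ntn5, at an unadjusted p under 0.05 (5.12%). With the replicate number as a block 0 of 59 were called (0.0682%), with 1 at an unadjusted p under 0.05 (4.38%).

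The spread between libraries sets the width of the interval on each ratio. Where that spread is technical, the intervals do not cover differences between animals. The 95% interval of the ratio of knockdown to control stayed within 2-fold either way for 59 of 59 tested members and within 1.5-fold for 54. The members whose interval reached past 1.5-fold were Sema3b, Sema3d, Epha2, Robo4 and Ntn3, each with a mean level under 8 TPM, and the widest was that of Ntn3. Intervals of 58 members hold a ratio of 1, the exception being Sema3d. These intervals are for 1 gene at a time and are not widened for the number of genes.

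**Figure D1:**
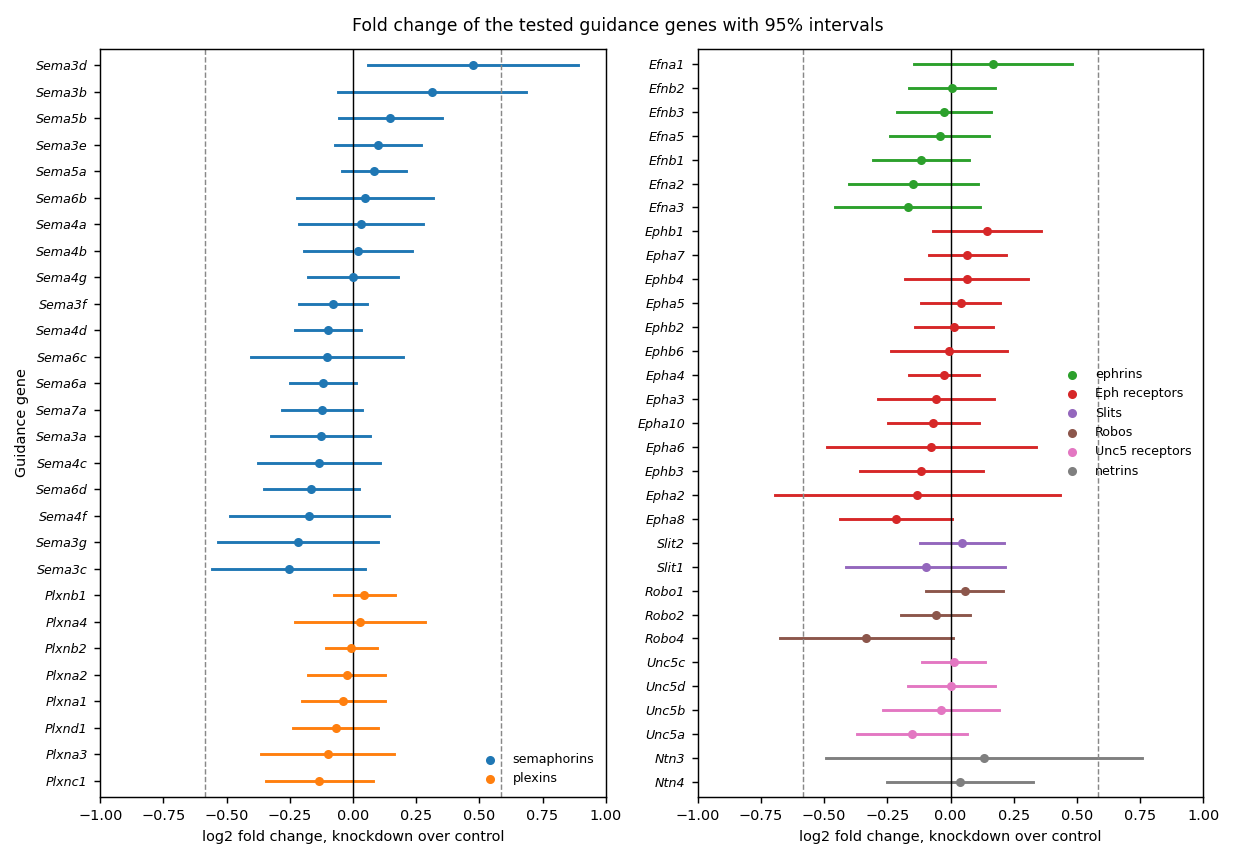
Log2 fold change (knockdown over control, horizontal axis) of the 59 tested guidance genes by family, with 95% intervals as bars and dashed lines at a 1.5-fold ratio either way. All but the interval of Sema3d cross 0, and 54 lie between the dashed lines.

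The log2 fold change was negative in 36 of the 59 tested members and positive in 23, a negative share of 61.0% against 48.2% of all tested genes. The median was -0.04 on the log2 scale for the members and 0.00 for all tested genes, and the median absolute log2 fold change was 0.08 and 0.07. By family the median log2 fold change was -0.09 for the semaphorins, -0.03 for the plexins, -0.04 for the ephrins, -0.02 for the Eph receptors, -0.03 for the Slits, -0.06 for the Robos, -0.02 for the Unc5 receptors and 0.08 for the netrins. Without the first knockdown library the signs were 30 negative and 29 positive and the median was -0.01. Without control 2 the semaphorin median was 0.02. These medians carry no test, since genes of a family are not replicates.

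Library totals ranged from 16.03 to 21.4 M counts (M for mega), and guidance genes took 0.199% to 0.224% of them. The targeted RNA, listed as Mm2pr, is too scarce to check the labels: it had 1, 1, 16.95 and 7.34 counts in the controls and 0, 0, 2 and 20.6 counts in the knockdown libraries. Control 3 stands apart with 16 counts of Xist, the RNA of the inactive X chromosome, against 21026 to 49127 in the other 7 libraries. For the interferon-induced Ifit1 it had 1.65 CPM (counts-per-million, scaled by TMM) against 8.58 to 14.8 in the other controls. That value lay within the range of the knockdown libraries, 0.806 to 2.04 CPM. Lens crystallin and filament markers summed to 2.83 to 5.64 TPM in controls and 30.9 to 350.3 TPM in knockdown libraries, where 5 of 7 tested were called higher. The first knockdown library has the highest astrocyte marker sum, 136 TPM against 46.9 to 78.1 in the rest, and the lowest amacrine marker sum, 598 TPM against 700 to 798. That astrocyte sum rests on Gfap, at 135 CPM against 32.3 to 66.8 CPM in the rest. The astrocyte marker Pdgfra was not raised there, at 40.9 CPM against 39.8 to 45.4 CPM, and Pax2, at 1.24 CPM there, was not tested. Of the Mueller glia markers, Vim was also highest there, at 262 CPM against 164 to 193 CPM, as were Slc1a3, Apoe and Rlbp1. Glul lay within the range of the rest, and Aqp4 was lowest there. Markers of bipolar cells, neurons of the inner retina, were present in every library, at a sum of 947 to 1052 TPM.

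Set per length, levels of the guidance genes ranged widely. Over the 8 libraries 4 members averaged at least 50 TPM, 28 lay between 10 and 50 TPM, 27 between 1 and 10 TPM, and 7 under 1 TPM. The 4 most abundant were Sema3f at 93.7 TPM, Plxna2 at 53.1, Sema7a at 51.4 and Slit2 at 50.9. Summed TPM of all 66 was 994 ± 63.4 (SD, n = 4) in controls and 976.5 ± 54.2 (SD, n = 4) in knockdown libraries, a difference smaller than either SD. As the samples are whole retinas, fewer cells of a type and less RNA per cell cannot be told apart in any of these levels.

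**Figure D2:**
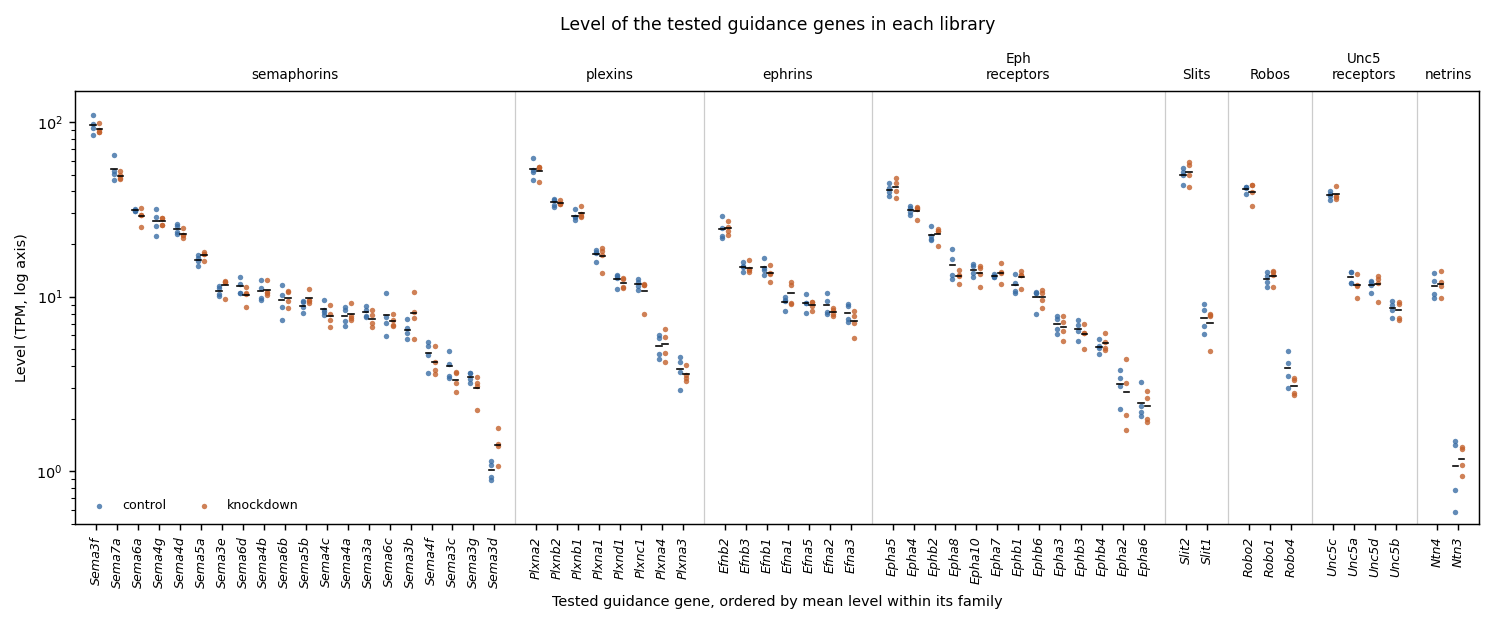
Level of each tested guidance gene in TPM (log axis) by family, with 4 control and 4 knockdown libraries as dots and the group mean as a bar. Genes are ordered by mean within a family; levels run from 1.12 TPM for Ntn3 to 93.7 TPM for Sema3f, and the dots of the groups overlap for each gene.

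Among the secreted class 3 semaphorins, Sema3f, a repellent that signals through neuropilin 2, was the most abundant. Its values were 92.9, 104, 89.6 and 84.9 CPM in controls 1 to 4 and 88.4, 86.5, 82.7 and 93.4 CPM in knockdown libraries 1 to 4, a ratio of 0.947 (95% interval 0.861 to 1.04). The highest value was that of control 2, and all others lay between 82.7 and 93.4 CPM. Sema3e, the ligand of Plxnd1 on endothelial cells, measured 31.4, 27.3, 31.2 and 29.7 CPM in controls and 27.9, 33.6, 32.9 and 33.7 CPM in knockdown libraries, a ratio of 1.07 (0.951 to 1.21). The first knockdown library lay near the lowest control and the other 3 above all controls. Sema3g, made by arterial endothelium, had 6.17, 6.49, 6.75 and 6.06 CPM in controls and 5.86, 6.30, 5.70 and 4.07 CPM in knockdown libraries, a ratio of 0.860 (0.691 to 1.07). Knockdown 1 and 3 were just under the control range and knockdown 4 was farther below it.

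Sema3d was the member with the smallest p-value and the least abundant semaphorin, at 1.21 TPM. This secreted semaphorin guides axons and endothelial cells. It measured 2.74, 2.31, 2.93 and 2.37 CPM in controls and 3.82, 3.54, 4.40 and 2.68 CPM in knockdown libraries, with means of 2.58 ± 0.297 and 3.61 ± 0.717 CPM (SD, n = 4). Knockdown libraries 1, 2 and 3 exceeded each control, and knockdown 4 fell inside the control range. The ratio was 1.39 (1.04 to 1.85), with a log2 fold change of 0.48, an SE of 0.19, an unadjusted p of 0.0276 and an adjusted p of 0.899 by edgeR. Leaving out control 2, control 4, knockdown 1 or knockdown 3 put its unadjusted p above 0.05, as did limma on log2(TPM + 1), with an unadjusted p of 0.113.

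After Sema3d the smallest unadjusted p-values were those of Robo4 (0.0550) and Epha8 (0.0567). The promoter sequences of these 3 genes are shown because they lie closest to the threshold, a choice made after the values were seen. Each is a stretch of 120 bases upstream of the RefSeq start on GRCm38.p6, read 5′ to 3′ in the direction of the gene, with CG dinucleotides in capitals. The stretches are chr5:12383046-12383165 (plus strand) for Sema3d, chr9:37401777-37401896 (plus strand, ending 75 bases before the RefSeq start) for Robo4 and chr4:136956817-136956936 (minus strand) for Epha8.
Sema3d: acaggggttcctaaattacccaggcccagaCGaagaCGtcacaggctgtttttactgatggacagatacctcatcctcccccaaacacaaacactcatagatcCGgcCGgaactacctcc
Robo4: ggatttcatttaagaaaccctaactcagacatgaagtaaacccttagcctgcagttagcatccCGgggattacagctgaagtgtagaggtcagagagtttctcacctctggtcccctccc
Epha8: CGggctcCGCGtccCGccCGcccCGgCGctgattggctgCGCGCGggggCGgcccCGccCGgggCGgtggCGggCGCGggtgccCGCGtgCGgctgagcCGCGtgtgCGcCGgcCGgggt

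The 3 stretches differ in CG content. CG, which reads the same on both strands, occurs 4 times in the Sema3d stretch, 1 time in that of Robo4 and 25 times in that of Epha8. Over the full 250 upstream bases the counts are 4, 2 and 46. Of the 32851 promoters in the RefSeq table, 62.2% hold at least as many CG as Sema3d, 29.0% hold at most as many as Robo4, and 0.323% hold at least as many as Epha8. The table held promoters for 57 of the 66 members, and the 45 with a single promoter had a median of 16 CG against 6 over all promoters. All promoters include those of genes with more than 1, so these sets are not alike. At or above the upper quartile of all promoters, 16 CG, were 25 of those 45. No methylation was measured, and a CG count is a description of the letters alone.

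Membrane-bound semaphorins hold the next places in level. Sema7a, anchored by a lipid and also expressed by immune cells, measured 68.8, 84.05, 67.9 and 64.9 CPM in controls and 65.4, 65.96, 68.1 and 62.9 CPM in knockdown libraries, a ratio of 0.919 (0.823 to 1.02), and control 2 alone was high. Sema6a, a transmembrane ligand of Plxna2 and Plxna4, had 54.5, 54.3, 54.8 and 56.4 CPM in controls and 45.6, 51.4, 55.1 and 50.7 CPM in knockdown libraries. Its ratio was 0.921 (0.841 to 1.01), and 3 of 4 knockdown libraries lay under the tight control range. Sema5a and Sema5b, which keep inner retinal neurites out of the outer retina, had ratios of 1.06 (0.970 to 1.16) and 1.11 (0.962 to 1.27). Sema5a measured 69.6, 70.4, 76.6 and 67.98 CPM in controls and 80.2, 75.96, 76.9 and 68.7 CPM in knockdown libraries. Sema5b measured 17.5, 16.9, 16.5 and 15.6 CPM in controls and 21.6, 17.9, 17.2 and 17.1 CPM in knockdown libraries. For both, the first knockdown library was the highest of the 8.

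Other semaphorins with an unadjusted p under 0.1 were Sema3b, Sema3c and Sema6d, named after their values were seen. Sema3b measured 7.10, 8.41, 7.69 and 6.90 CPM in controls and 12.9, 9.48, 8.49 and 6.55 CPM in knockdown libraries, a ratio of 1.24 (0.961 to 1.61), with knockdown 1 the highest. Sema3c measured 7.49, 8.89, 10.9 and 8.13 CPM in controls and 8.55, 6.25, 7.87 and 7.04 CPM in knockdown libraries, a ratio of 0.838 (0.679 to 1.03), with control 3 high. Sema6d measured 32.5, 28.7, 26.7 and 27.6 CPM in controls and 22.96, 28.6, 25.2 and 26.1 CPM in knockdown libraries, a ratio of 0.892 (0.783 to 1.02). Its highest value was control 1 and its lowest knockdown 1.

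The other 9 semaphorins are given by their mean TPM in control and knockdown libraries. Sema4g had 26.9 and 26.96 TPM, Sema4d 24.4 and 22.8 TPM, Sema4b 10.8 and 10.9 TPM, and Sema6b 9.499 and 9.86 TPM. Sema4c had 8.48 and 7.72 TPM, Sema3a 8.15 and 7.48 TPM, Sema6c 7.80 and 7.25 TPM, Sema4a 7.79 and 7.98 TPM, and Sema4f 4.74 and 4.20 TPM. In the order of levels, Sema3f and Sema7a stood clear of each other and of the next gene, Sema6a, while the ranges of Sema6a, Sema4g and Sema4d overlapped in that order.

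**Figure D3:**
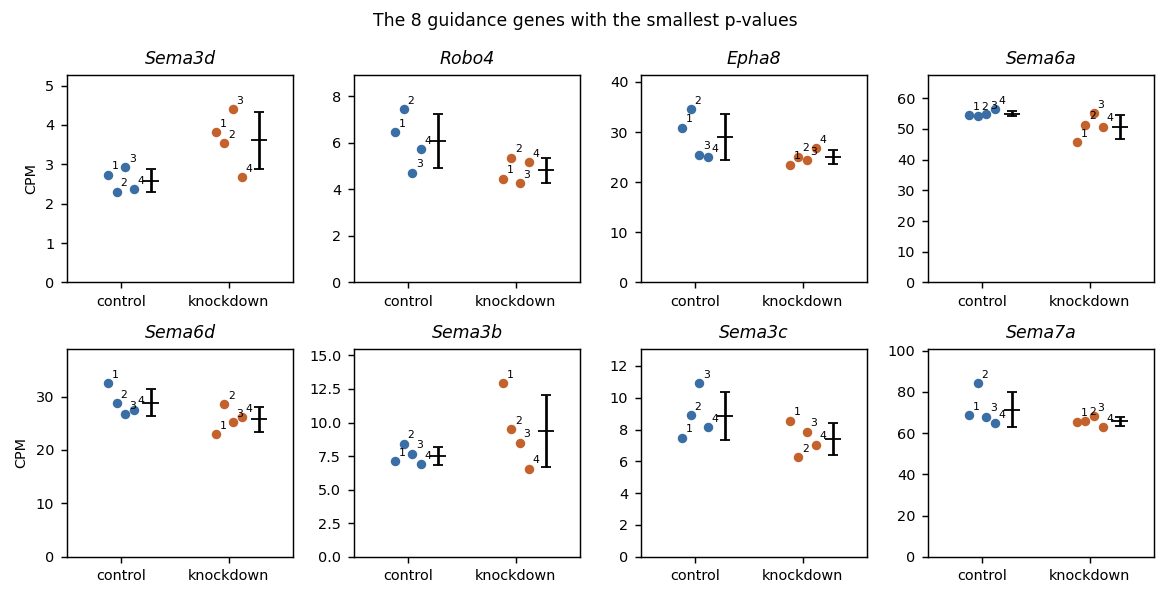
CPM in each library of the 8 guidance genes with the smallest unadjusted p, numbered by replicate, with the group mean and SD beside. In Sema3d, 3 of 4 knockdown libraries exceed the control range, and in every panel the groups overlap.

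Plexins, the semaphorin receptors, were led by Plxna2. It measured 233, 272, 234 and 216 CPM in controls and 210.5, 246, 242 and 241 CPM in knockdown libraries, with means of 239 ± 23.5 and 235 ± 16.4 CPM (SD, n = 4) and a ratio of 0.983 (0.885 to 1.09). The lowest value was that of the first knockdown library and the highest that of control 2. Plxnb2, a receptor of class 4 semaphorins, was steady across libraries, at 91.9, 91.1, 87.1 and 88.1 CPM in controls and 91.1, 88.4, 85.8 and 91.3 CPM in knockdown libraries, a ratio of 0.996 (0.929 to 1.07). Plxna2 exceeded Plxnb2 in TPM in every library, whereas the ranges of Plxnb2 (34.5 TPM) and Plxnb1 (29.6 TPM) overlapped.

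The remaining A-type plexins pair with class 6 and, through neuropilins, class 3 semaphorins. Plxna1 measured 65.2, 65.4, 65.2 and 59.6 CPM in controls and 51.95, 66.5, 61.9 and 68.2 CPM in knockdown libraries, a ratio of 0.974 (0.869 to 1.09). Plxna4 measured 30.9, 29.2, 24.5 and 23.8 CPM in controls and 22.9, 24.6, 32.9 and 30.2 CPM in knockdown libraries, a ratio of 1.02 (0.852 to 1.22). Plxna1 and Plxna4 shared the same lowest library, knockdown 1. Plxna3 measured 11.7, 12.3, 10.5 and 8.53 CPM in controls and 9.68, 9.59, 9.67 and 11.2 CPM in knockdown libraries, a ratio of 0.933 (0.778 to 1.12). Plxna3, with Plxnb3 and Efnb1, is an X-linked member, and its value in control 3, the library with little Xist, was inside the range of the other controls.

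Plxnd1, the receptor that tip cells of vessel sprouts use for Sema3e, measured 36.8, 35.8, 35.95 and 32.2 CPM in controls and 37.4, 35.2, 30.3 and 31.1 CPM in knockdown libraries, a ratio of 0.953 (0.848 to 1.07). Knockdown 1 and 2 lay with or just above the controls and knockdown 3 and 4 under them. Plxnc1, the receptor of Sema7a, measured 33.6, 34.6, 37.3 and 33.7 CPM in controls and 24.6, 34.9, 33.3 and 34.1 CPM in knockdown libraries, a ratio of 0.912 (0.788 to 1.06). Without its low first knockdown value the remaining libraries all lay between 33.3 and 37.3 CPM. Plxnb1 had a mean of 29.1 TPM in controls and 30.1 TPM in knockdown libraries, and Plxnb3, with 20 counts over the 8 libraries, did not pass the filter.

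Among the ephrins, Efnb2, the arterial ephrin and a ligand of Ephb4, was the most abundant. It measured 55.5, 46.4, 42.5 and 44.9 CPM in controls and 45.6, 48.2, 51.2 and 45.2 CPM in knockdown libraries, with means of 47.3 ± 5.68 and 47.5 ± 2.80 CPM (SD, n = 4) and a ratio of 1.004 (0.891 to 1.13). Control 1 was high and the other 7 libraries lay between 42.5 and 51.2 CPM. Efnb3, a ligand of neuronal Eph receptors, measured 17.5, 18.4, 20.5 and 20.1 CPM in controls and 18.98, 17.7, 18.04 and 20.5 CPM in knockdown libraries, a ratio of 0.982 (0.863 to 1.12). Efnb1, graded across the retina's dorsal and ventral sides, measured 21.7, 18.8, 18.9 and 18.2 CPM in controls and 16.7, 17.7, 19.5 and 17.7 CPM in knockdown libraries, a ratio of 0.922 (0.809 to 1.05). Neither gene had a group that stood clear of the other.

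Among the lipid-anchored ephrins, Efna1, which is induced in endothelium by inflammatory signals, measured 4.89, 5.81, 5.76 and 5.87 CPM in controls and 7.58, 5.42, 6.76 and 5.41 CPM in knockdown libraries, a ratio of 1.12 (0.905 to 1.40). Knockdown 1 and 3 were above all controls and knockdown 2 and 4 inside their range. Efna5, a nasal-temporal map ligand, measured 13.1, 16.3, 15.004 and 15.6 CPM in controls and 14.04, 15.2, 14.8 and 14.2 CPM in knockdown libraries, a ratio of 0.971 (0.847 to 1.11). Its partner in the map, Efna2, measured 8.91, 6.87, 8.16 and 7.15 CPM in controls and 6.99, 7.35, 7.004 and 6.74 CPM in knockdown libraries, a ratio of 0.903 (0.757 to 1.08). The knockdown values of Efna2 lay close together near the low end of the controls. Efna3 had means of 8.09 and 7.22 TPM, and Efna4, which did not pass the filter, had 5 to 13 counts per library. In level Efnb2 stood clear of the next ephrin, while Efna1, Efna5, Efna2 and Efna3 overlapped in that order.

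Eph receptors were led by Epha5 at 41.7 TPM and Epha4 at 31.1 TPM, whose ranges did not overlap. Epha5, graded along the nasal-temporal axis of the ganglion cell layer, measured 84.2, 68.96, 79.5 and 78.3 CPM in controls and 71.96, 76.2, 88.3 and 83.5 CPM in knockdown libraries, a ratio of 1.03 (0.922 to 1.15). Epha4, a receptor of both ephrin classes, measured 47.9, 41.4, 47.5 and 46.4 CPM in controls and 41.7, 47.3, 44.9 and 46.2 CPM in knockdown libraries, a ratio of 0.983 (0.893 to 1.08). Both genes varied as much within a group as between the groups. Epha6, another receptor of the nasal-temporal axis, measured 3.43, 3.65, 5.19 and 3.40 CPM in controls and 3.17, 4.17, 4.46 and 3.12 CPM in knockdown libraries, a ratio of 0.949 (0.713 to 1.26), with control 3 the highest.

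Epha8 was the Eph receptor with the smallest p-value, and its CG-rich promoter is printed above. It measured 30.9, 34.6, 25.5 and 24.99 CPM in controls and 23.5, 25.1, 24.4 and 26.8 CPM in knockdown libraries, with means of 28.98 ± 4.58 and 24.97 ± 1.41 CPM (SD, n = 4). Controls 1 and 2 were high, while controls 3 and 4 lay among the knockdown libraries. The ratio was 0.862 (0.739 to 1.005), with an adjusted p of 0.930 by edgeR. Epha2, an endothelial and epithelial receptor, varied widely within its group: 5.92, 4.76, 5.43 and 3.75 CPM in controls and 7.26, 2.71, 4.96 and 3.27 CPM in knockdown libraries, a ratio of 0.913 (0.618 to 1.35). Both the highest and the lowest value of the 8 were knockdown libraries.

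Ephb receptors serve the dorsal-ventral map and, in the case of Ephb1, the turn of ipsilateral axons at the optic chiasm. Ephb1 measured 19.5, 19.8, 25.5 and 23.3 CPM in controls and 21.8, 24.96, 25.7 and 24.9 CPM in knockdown libraries, a ratio of 1.11 (0.954 to 1.28). Ephb2 measured 48.7, 41.999, 42.04 and 42.8 CPM in controls and 39.7, 47.5, 45.002 and 45.2 CPM in knockdown libraries, a ratio of 1.01 (0.908 to 1.12). Ephb2 was lowest in knockdown 1 and highest in control 1. Ephb3 measured 12.4, 11.3, 9.48 and 11.2 CPM in controls and 8.82, 10.4, 11.4 and 10.4 CPM in knockdown libraries, a ratio of 0.923 (0.779 to 1.09). Ephb4, the venous partner of Efnb2, measured 9.01, 7.88, 9.96 and 9.12 CPM in controls and 9.90, 8.54, 10.5 and 8.73 CPM in knockdown libraries, a ratio of 1.04 (0.882 to 1.24). Its 2 highest values were control 3 and knockdown 3. Mean TPM in control and knockdown libraries was 14.2 and 13.6 for Epha10, 13.1 and 13.7 for Epha7, 6.97 and 6.72 for Epha3, and 9.885 and 9.884 for Ephb6. Epha1, with 0 to 4 counts per library, was not tested.

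The Slit genes were carried by Slit2, a secreted repellent that also acts on vessels. It measured 162, 168, 158 and 142 CPM in controls and 139, 156, 179.8 and 176 CPM in knockdown libraries, with means of 158 ± 10.9 and 163 ± 18.7 CPM (SD, n = 4) and a ratio of 1.03 (0.920 to 1.16). Knockdown libraries held both extremes, the first the lowest and the third the highest. Slit1, which with Slit2 channels ganglion cell axons towards the optic nerve, measured 18.4, 16.6, 13.9 and 12.96 CPM in controls and 10.3, 16.2, 15.4 and 15.8 CPM in knockdown libraries, a ratio of 0.934 (0.751 to 1.16). Slit2 made up 86.5% ± 1.44 (SD, n = 4) of the family's TPM in controls and 87.6% ± 1.42 (SD, n = 4) in knockdown libraries. Slit3 had 2 to 21 counts per library and was not tested.

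Robo2, the main Slit receptor of ganglion cells, measured 137, 135, 137 and 132 CPM in controls and 112, 129, 138 and 139 CPM in knockdown libraries. Means were 135 ± 2.59 and 129.8 ± 12.6 CPM (SD, n = 4), a ratio of 0.961 (0.873 to 1.06), and the first knockdown library alone was far under the narrow control range. Robo1 measured 34.6, 36.04, 32.7 and 31.4 CPM in controls and 31.8, 35.3, 36.4 and 36.5 CPM in knockdown libraries, a ratio of 1.04 (0.936 to 1.16). As a share of summed Robo TPM, Robo1 made up 21.8%, 22.5%, 21.2% and 20.8% in controls and 24.1%, 23.2%, 23.02% and 22.8% in knockdown libraries, so that the groups did not overlap. That pattern was noticed after the values were seen, and such shares failed to overlap for 2 of 59 members, Robo1 and Sema5b. By CPM, a different measure, groups failed to overlap for 0 of 59 members and 3.31% of all tested genes. Shares within a family were not computed for other genes, so the 2 of 59 has no like background.

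Robo4, the endothelial Robo, was the member with the lowest ratio. It measured 6.46, 7.45, 4.72 and 5.72 CPM in controls and 4.46, 5.37, 4.28 and 5.16 CPM in knockdown libraries, with means of 6.09 ± 1.16 and 4.82 ± 0.527 CPM (SD, n = 4). Controls 1, 2 and 4 lay above each knockdown library, and control 3, the library with little Xist, lay among them. Its Ifit1 was low too, as in the knockdown libraries. The ratio was 0.793 (0.626 to 1.01), with a log2 fold change of -0.33, an SE of 0.16, an unadjusted p of 0.0550 and an adjusted p of 0.930 by edgeR. Robo3, which lies 553 bases from Robo4 on the other strand, had 11 to 26 counts per library and was not tested.

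Unc5c, a netrin receptor that repels, measured 58.4, 59.3, 63.7 and 58.3 CPM in controls and 59.4, 58.2, 66.1 and 58.3 CPM in knockdown libraries, a ratio of 1.01 (0.925 to 1.10), and replicate 3 was the highest of each group. Unc5a measured 22.2, 21.7, 19.6 and 20.2 CPM in controls and 19.7, 21.6, 15.4 and 18.3 CPM in knockdown libraries, a ratio of 0.899 (0.773 to 1.05). Unc5b, the Unc5 receptor of endothelial tip cells, measured 22.3, 19.5, 21.3 and 18.5 CPM in controls and 22.6, 22.1, 17.05 and 17.7 CPM in knockdown libraries, a ratio of 0.975 (0.831 to 1.14). Its knockdown values split into a high and a low pair. Unc5d had means of 11.66 and 11.73 TPM. Unc5c stood clear of the other 3 in level, and the ranges of those 3 overlapped in turn.

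Netrins were scarce apart from Ntn4, a laminin-like netrin of basement membranes. It measured 17.8, 14.1, 20.3 and 15.9 CPM in controls and 21.6, 16.9, 17.4 and 14.2 CPM in knockdown libraries, a ratio of 1.03 (0.840 to 1.254). Ntn3 measured 2.84, 1.15, 1.604 and 3.15 CPM in controls and 1.99, 2.19, 2.73 and 2.68 CPM in knockdown libraries, a ratio of 1.10 (0.710 to 1.69), and its controls spread more than its knockdown libraries. Ntn1, the classic attractant of the optic nerve head, had 10 to 29 counts per library, and Ntn5 had 3, 0, 3 and 5 counts in controls and 1, 0, 0 and 0 in knockdown libraries. The floor of 3 counts corresponds to 0.140 to 0.187 CPM of a library total, and 7 of the 8 libraries were at or under it for Ntn5. With no expression filter Ntn5 was at an unadjusted p under 0.05 and was not called.

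Grouped by textbook role, no list held a called member. Members with known roles in vessels (Robo4, Plxnd1, Unc5b, Efnb2, Ephb4, Sema3g, Efna1, Ntn4 and Sema3e) gave 5 positive and 4 negative log2 fold changes with a median of 0.01 and 0 of 9 called. The 10 of the topographic map gave 4 positive and 6 negative with a median of -0.03, the 7 of the plexiform strata 3 and 4 with -0.02, and the 6 tested members of the optic fibre layer and midline 4 and 2 with 0.03. In these 3 lists too, 0 members were called.

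Markers of several cell types had negative log2 fold changes in the same comparison. As background, 2.66% of all tested genes were at an unadjusted p under 0.05 by edgeR and lower in knockdown libraries, and 0.062% were called. All 8 endothelial markers had a negative log2 fold change, with a median of -0.21, and 5 were at an unadjusted p under 0.05 with 0 called. Their summed TPM was 169 to 199 in controls and 153 to 165 in knockdown libraries. All 5 pericyte markers were negative too, with a median of -0.19, 3 at an unadjusted p under 0.05 and 0 called. The 8 ganglion cell markers were all negative, with a median of -0.17, summed to 1399 to 1504 TPM in controls and 1118 to 1416 TPM in knockdown libraries, and 5 were at an unadjusted p under 0.05, of which 1, the glutamate transporter gene Slc17a6, was called. The 4 cone markers were negative as well, with a median of -0.10, 1 at an unadjusted p under 0.05 and 0 called. So were the 4 rod markers, with a median of -0.04, 1 at that level and 0 called. Retinal pigment epithelium markers gave 1 positive and 3 negative (median -0.24), horizontal cells 1 and 2 (-0.11) and amacrine cells 1 and 4 (-0.01). Mueller glia gave 3 and 3 and microglia 2 and 2. All 5 bipolar markers (0.05) and the 2 tested astrocyte markers (0.15) were positive. The 1 positive pigment epithelium marker, Tyr, had a log2 fold change of 0.44 and an unadjusted p of 0.00224 by edgeR. It was not called, and 0 of the 3 negative ones were at an unadjusted p under 0.05. Of all tested genes 2.62% were under that level and higher in knockdown libraries. Of the 9 vessel members, Robo4 and Sema3g had log2 fold changes beyond the endothelial median, at -0.33 and -0.22, and the other 7 lay between -0.07 and 0.17. The part of cell content in these values was not tested.

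The partners of these families gave no call. Of 22 listed co-receptors 21 were tested, 7 with a positive and 14 with a negative log2 fold change, a median of -0.02 and 0 called, and Timd2 was at 0 in every library. Nrp1, the co-receptor of Sema3a and of VEGF, measured 15.6 ± 1.82 CPM in controls and 17.5 ± 0.787 CPM in knockdown libraries (SD, n = 4). Of 12 other guidance ligands 10 were tested, 6 positive and 4 negative, with 0 called. At an unadjusted p under 0.05 were 1 higher in knockdown libraries, Ndnf, and 1 lower, Rgmb, against 2.62% and 2.66% of all tested genes. Ndnf, a secreted factor of neurons and endothelium, measured 209 ± 7.48 and 229 ± 10.07 CPM (SD, n = 4), with an unadjusted p of 0.0170 and an adjusted p of 0.822 by edgeR. Its knockdown values, 219.9 to 242.1 CPM, lay above its controls, 201.4 to 218.8 CPM. Groups failed to overlap for 3.31% of all tested genes. Rgmb, a ligand of neogenin, measured 62.8 ± 2.61 and 57.4 ± 1.92 CPM (SD, n = 4), with an unadjusted p of 0.0266 and an adjusted p of 0.896 by edgeR. Of 49 signal transducers, such as the collapsin response mediators, 21 were positive and 28 negative, with 0 called and 1, the Ras regulator Rasa1, at an unadjusted p under 0.05. The groups of Rasa1 (80.5 to 85.0 CPM in controls, 85.7 to 93.2 CPM in knockdown libraries) did not overlap, nor did those of Dock1 (23.5 to 26.05 and 26.3 to 28.1 CPM). The unadjusted p of Dock1 was 0.136 by edgeR. The shares over all tested genes are those given above, 2.62% at an unadjusted p under 0.05 and higher, and 3.31% without overlap.

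The spread among members followed particular libraries. The first knockdown library was the lowest of the 8 for 18 of the 59 members, or 30.5%, against 18.5% of all tested genes, and the highest for 8, or 13.6%, against 19.7%. Its 18 low members include Slit1, Slit2, Robo2, Plxna1, Plxna2, Plxna4, Plxnc1, Sema3a, Sema6a, Sema6d, Epha7, Epha8, Ephb2 and Unc5d. Its 8 high members are Sema3b, Sema5a, Sema5b, Plxnd1, Efna1, Epha2, Unc5b and Ntn4. Against the other 3 knockdown libraries it was under all of them for 27 members, or 45.8%, against 31.1% of all tested genes, and above all of them for 9, or 15.3%, against 32.7%.

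The low members of the first knockdown library differ in size of gap. Slit1 was 10.3 CPM there against 15.4 to 16.2 CPM in the other knockdown libraries, and Unc5d was 36.3 CPM against 44.2 to 48.3 CPM. At the other end, Epha2 was 7.26 CPM against 2.71 to 4.96 CPM, and Sema3b 12.9 CPM against 6.55 to 9.48 CPM. The same library has the low ganglion and amacrine marker sums and the high astrocyte marker sum given above. The latter rests on the glial filament gene Gfap, at 135 CPM against 32.3 to 66.8 CPM elsewhere, and not on Pdgfra. Vim, Slc1a3, Apoe and Rlbp1, listed as Mueller glia markers, were also highest there, whereas Glul was not and Aqp4 was lowest. The part of these markers in this pattern was not tested. Among controls, the first and second were the highest of the 8 for 14 and 13 members, or 23.7% and 22.03%, against 8.61% and 14.9% of all tested genes.

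**Figure D4:**
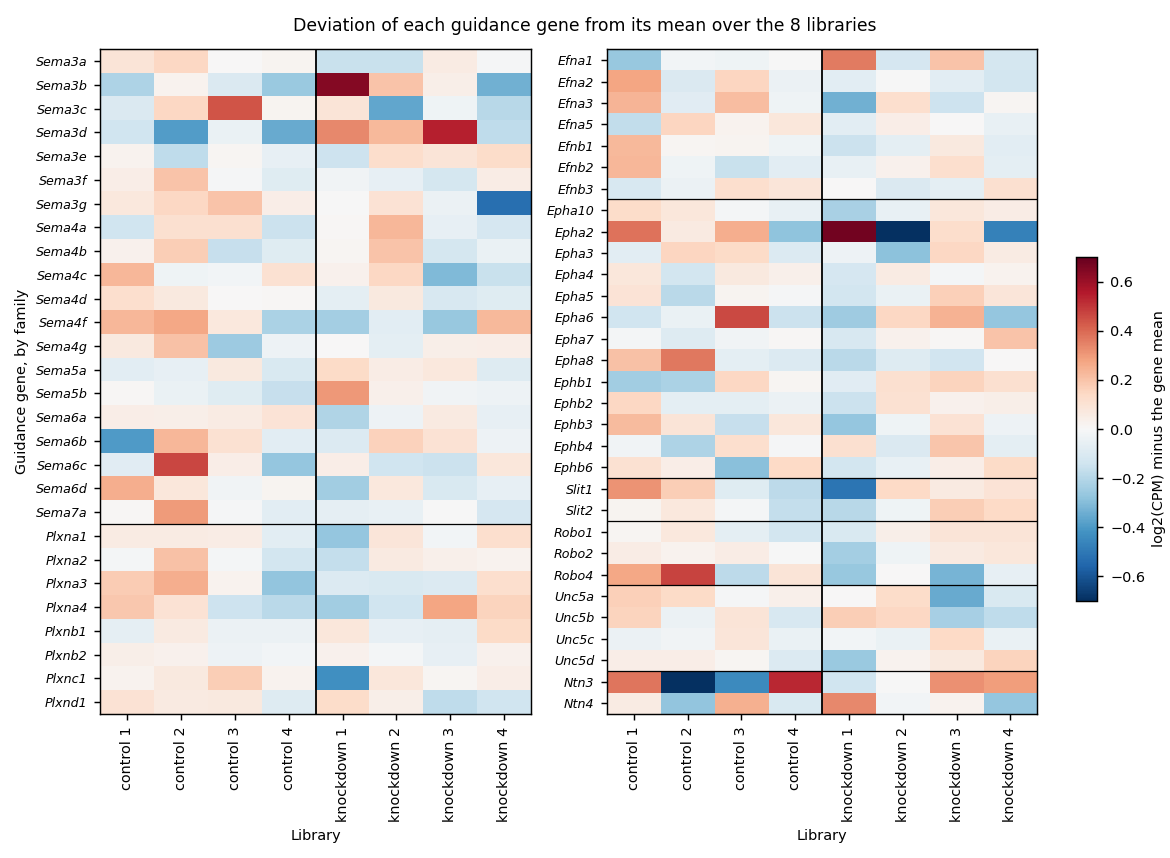
Deviation of each tested guidance gene in each library from its own mean over the 8 libraries (log2 CPM, colour), rows by family and columns by library, with the colour scale capped at both ends. The first knockdown column is low for 39 of 59 genes relative to the mean of the other knockdown libraries.

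**Figure D5:**
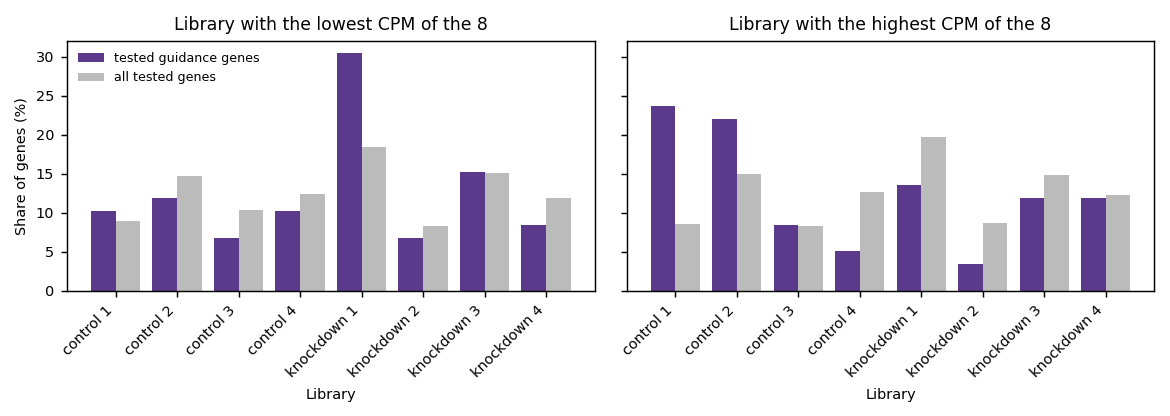
Percent of genes for which each library is the lowest (left) or highest (right) of the 8, for the 59 guidance genes and for all 16118 tested genes. The first knockdown library is the lowest for 30.5% of guidance genes and 18.5% of all genes.

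In GENCODE M21 on GRCm38 all 66 members have a position, and several sit side by side. The gap between Efna1 and Efna3 on chromosome 3 is 32.8 kb and that from Efna3 to Efna4 is 10.4 kb. On chromosome 4 the gap from Ephb2 to Epha8 (136929419 to 136956816, minus strand) is 93.4 kb. On chromosome 9 Sema3b and Sema3f (107681500 to 107710475, minus strand) are 72.3 kb apart, and Robo4 spans 37401897 to 37415115 on the plus strand. Sema3d spans 12383385 to 12588948 on the plus strand of chromosome 5, with Sema3a at 536 kb and Sema3e at 423 kb beyond Sema3a. Robo1 (72308306 to 73046095, plus strand) and Robo2 (73891839 to 74411825, minus strand) share chromosome 16, 846 kb apart.

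Some members share exon bases with another gene, and without stated strand use such reads cannot be told apart. This holds for 17 of the 66, and for 4 of them over 10% of the exonic bases: Efna3 at 14.1%, Efna4 at 10.5%, Ntn5 at 23.4% and Plxna1 at 10.7%. Of these 4, Efna3 and Plxna1 passed the filter, and neither was at an unadjusted p under 0.05.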

How the data were processed

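Mouse retinal RNA was sequenced in 8 libraries, 4 control and 4 knockdown. The deposited table has TPM in its name, but its values are estimated counts: libraries total 16.03 to 21.4 M (M for mega), and 90.6% to 91.9% of the entries are whole. The submitters' processing notes name Bowtie 0.12.2 and mm9 without a role. The counting tool, and how it shared reads between genes, is not given in the sources used here. The authors' 2 columns of group means were left out. After rounding, and with TPM from the table's gene lengths, 16118 of 29582 genes above 0 passed a filter of 1 TPM or more in 4 or more of 8 libraries. These entered edgeR 4.0.16 (R 4.3.3) with TMM scaling, the quasi-likelihood test and group as the only term, and calls were made at an adjusted p under 0.05 (Benjamini-Hochberg over all tested genes). CPM refers to the TMM-scaled total over tested genes. The biological coefficient of variation was 0.0959. The script was tested on simulated data.

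SE was taken as |log2 fold change| divided by the root of F, and 95% intervals use the degrees of freedom of the fit. The floor of 3 counts covers counting error alone, because without molecular identifiers reads can be copies of one molecule. Genes shown in every library are those at an unadjusted p under 0.05 or with groups that do not overlap, the 2 most abundant of each family and those on the role lists. Plxnc1, Epha2, Epha8, Sema3b, Sema3c and Sema6d were added after their values were seen. Others have group means or count ranges. Members and lists were chosen with earlier results of these data known. Alternatives were median-of-ratios scaling, DESeq2 1.42.0, limma 3.58.1 on log2(TPM + 1), no filter, a mean TPM of 5 or more, robust dispersion, a replicate block and each library left out. Positions are from GENCODE M21 and promoters from RefSeq, both GRCm38. Within groups no pair of libraries agreed within sampling noise (chi-square per degree of freedom 5.11 to 15.2).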

Additional observations from a re-analysis of the deposited data

Results flagged for a closer look

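In 11 of the 118 groups of 4 libraries checked for a tested guidance gene, 1 library lay far from the other 3 relative to the whole range. Chance flags about 1 group in 20. In the first knockdown library 4 genes were low: Sema3e at 27.9 CPM against 32.9 to 33.7 CPM in the other 3, Plxna2 at 210.5 CPM against 240.5 to 246 CPM, Plxnc1 at 24.6 CPM against 33.3 to 34.9 CPM, and Slit1 at 10.3 CPM against 15.4 to 16.2 CPM. Plxna3 was high in knockdown 4, at 11.2 CPM against 9.59 to 9.68 CPM, and Unc5c in knockdown 3, at 66.1 CPM against 58.2 to 59.4 CPM. Among the controls, Efna1 was low and Ephb2 high in control 1, at 4.89 CPM against 5.76 to 5.87 CPM and at 48.7 CPM against 41.999 to 42.8 CPM. Plxnb1 was high in control 2, at 108 CPM against 98.9 to 100.4 CPM. Epha6 was high in control 3, at 5.19 CPM against 3.40 to 3.65 CPM, and Plxna1 low in control 4, at 59.6 CPM against 65.2 to 65.4 CPM.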

How the results depend on the processing

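No guidance gene was called under any of the 16 alternatives, and the smallest adjusted p among them was 0.488. With limma, robust dispersion, and without control 1 or control 2, 0 of all tested genes were called, so there the members' count could not differ. The number of members at an unadjusted p under 0.05, 1 as reported, was 2 with DESeq2, 0 with limma, 5 with no filter, 0 with a mean TPM of at least 5 (50 of the members tested, with Sema3d and Robo4 among those dropped), 2 with robust dispersion and 0 to 5 when 1 library was left out. These are 3.39% of members against 5.17% of all tested genes with robust dispersion, and 8.47% against 5.93% without knockdown 2, which gave the 5. Over all tested genes the count of calls, 10 as reported, was 45 with DESeq2, 0 with limma, 157 with no filter, 1 with a mean TPM of at least 5, 0 with robust dispersion and 0 to 58 when 1 library was left out, the 58 without control 3. Leaving out control 3 and knockdown 1 together, chosen after seeing the data, gave 5 members at an unadjusted p under 0.05 (8.47%, against 7.51% of all tested genes), 0 called and 69 genes called in all. The cause of these shifts was not tested.

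The semaphorin median of -0.09 ranged from -0.109 to 0.0175 when 1 library was left out, the 0.0175 without control 2, and the medians of the other families moved by less than the spread between libraries. Of 37 members named by rule, 15 had a log2 fold change of at least 1 SE and kept their sign under each alternative that tested them, whereas 18 of the 22 under 1 SE took the other sign under at least 1 alternative. The signs of those 22 enter the counts of positive and negative values and carry no direction of their own. Robo4 passed an unadjusted p of 0.05 with no filter, without control 3, without knockdown 2, and without control 3 and knockdown 1 together. Epha8 did so with DESeq2, robust dispersion and no filter, without control 3, control 4 or knockdown 4, and without control 3 and knockdown 1 together. With the replicate number as a block, 0 members were called, 1 was at an unadjusted p under 0.05 and 11 genes were called in all. The numbers do not pair the libraries: same-numbered deviations correlated at 0.01, -0.00, -0.04 and -0.11. At 24 to 5655 counts per library, depth limits the tested members least for Plxna2 and most for Ntn3.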
